A study of Mus musculus with 10 samples.

Results

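Levels of 7 transcription factor genes of cartilage and bone formation, Sox9, Sox5, Sox6, Runx1, Runx2, Runx3 and Sp7, were followed in single cells of the mouse enthesis where the supraspinatus, a shoulder muscle, attaches by its tendon to bone. They were chosen by symbol, and all 7 were found among the 31053 genes listed for the droplet libraries and the 55453 listed for the plates. The droplet libraries, 1 per age, came from C57BL/6 entheses taken on postnatal days 11, 18 and 56, written P11, P18 and P56. Gli1CreERT;Ai14 mice, which received tamoxifen at P5 and P7, gave 1 plate of 96 wells at each of 7 ages, namely P7, the younger ages of the droplets (P11 and P18), P14, P21, P28 and P42. Their Cre is made where Gli1, a Hedgehog target, is expressed, and tamoxifen turns on a red fluorescent protein in such cells and their descendants; the second dose fell on the age of the P7 plate. Entheses were pooled before dissociation, per the labels' protocols, so the number of animals behind a library is unknown. Droplet cells were sorted as negative for Cd45, a leukocyte protein, and for a dead-cell dye. The plate protocol does not name P14, and its wording leaves unclear if red cells were collected.

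SOX9 is the transcription factor that starts and maintains the chondrocyte programme, and SOX5 and SOX6 are its partners on cartilage matrix genes. The RUNX factors bind DNA together with the shared subunit CBFB. RUNX2 drives chondrocyte hypertrophy and osteoblast formation, RUNX1 acts in blood cells and in early cartilage, and RUNX3 acts in lymphocytes and maturing cartilage. SP7, also called osterix, acts downstream of RUNX2 in mineralising cells. In the mouse genome (GRCm38.p6) Sox9 spans chr11:112782210-112787757, Sox5 chr6:143828425-144782287 and Sox6 chr7:115470872-116040776. Runx1 spans chr16:92601466-92826074, Runx2 chr17:44495987-44814797, Runx3 chr4:135120645-135177990 and Sp7 chr15:102356603-102367035. Sox5 and Sox6 are long genes of 953863 and 569905 bases, against 5548 for Sox9, and reads were taken from transcript 3′ ends in the droplets, so levels are compared between cells and not between genes.

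The RUNX genes are themselves listed with RUNX-type sites close to an annotated start, and these stretches are shown because the same sequence occurs in all 3. RefSeq windows around annotated starts (GRCm38.p6) were searched for TGTGGT and its complement ACCACA on both strands. Windows were given for 5 of the 7 genes, the exceptions being Sox9 and Sp7. Runx1 and Runx3 each had a further window, at another annotated start, with 0 sites. Capitals mark ACCACA, and each stretch of 30 bases is written on the strand of its gene.
Runx1: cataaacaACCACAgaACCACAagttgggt
Runx2: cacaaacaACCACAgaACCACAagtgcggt
Runx3: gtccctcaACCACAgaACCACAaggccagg
The Runx1 stretch lies at chr16:92826025-92826054 on the minus strand and begins at base 21 counted from the start. The Runx2 stretch lies at chr17:44814583-44814612 on the minus strand. It begins at base 16 of an annotated start inside the gene span given above, not at the end of that span. The Runx3 stretch lies at chr4:135120503-135120532 on the plus strand and begins 142 bases before the start. The 3 stretches share 18 consecutive bases, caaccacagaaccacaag. Those 18 bases were found in 4 of 32851 windows in all (0.0122%). They were taken as the longest run common to the 3 windows shown, so these 3 are counted by construction. The fourth was that of Gm16225, on its other strand. A pair of ACCACA spaced as in these stretches was found on either strand in 7 windows (0.0213%), and a single TGTGGT on either strand in 16.8%. A match of letters is a description and shows no binding.

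Filtering left 2882 (P11), 5163 (P18) and 4920 (P56) droplet cells and 86 to 96 wells per plate, with total deposited counts of 44104990, 53725468 and 40082499 in the droplet libraries and 240498 to 507431 on the plates. Cells were clustered without the 7 genes, and clusters were named from marker lists. The chondrocyte-like class held 254 cells at P11, 578 at P18 and none at P56. The mineralising-like class, led by Ibsp, a bone matrix protein gene, held 88, 301 and 2 cells. Both classes carried 13 of 14 chondrocyte markers at P11 and P18, and the summed level of these markers was 97077 and 69973 CPM (counts scaled to the same total in every class and library) in chondrocyte-like cells and 97987 and 62675 in mineralising-like cells. Mineralising markers summed to 958 and 1705 CPM in the first and to 13398 and 26786 in the second. The tendon fibroblast-like class held 712, 188 and 1904 cells, and the connective-tissue fibroblast-like class 992, 211 and 1733. A further cluster of 177, 170 and 44 cells, led by Tnn and Barx2, mixed tendon and chondrocyte markers and stayed unnamed. On the plates, P21 stood apart, with 79 of 93 wells in unnamed clusters. Only 19 of 14352 droplet barcodes occurred in more than 1 library.

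Sox9 was highest in chondrocyte-like cells at both ages that had them. Its level there was 841 CPM at P11 and 1388 CPM at P18, and 504 and 689 CPM in mineralising-like cells. Tendon fibroblast-like cells had 93.2, 133 and 57.8 CPM at P11, P18 and P56, and connective-tissue fibroblast-like cells 76.0, 76.5 and 47.9 CPM. The 2 cartilage classes did not overlap in level with the 2 fibroblast classes in any library. Endothelial-like cells, which served as a background for free RNA, had 2.44 CPM at P11 and 8.40 CPM at P56. The Tnn and Barx2 cluster had 243, 456 and 431 CPM, which lay between the cartilage and tendon classes at P11 and P18. At P56, with no chondrocyte-like cells, it lay above the tendon class.

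The share of cells with a Sox9 molecule followed the same order once every cell had been thinned to 2000 unique molecules. It was 63.1% at P11 (95% exact binomial interval 56.7 to 69.1) and 73.4% at P18 (69.6 to 77.0) in chondrocyte-like cells, after 5 and 6 shallower cells had been left out. In tendon fibroblast-like cells it was 11.9%, 15.4% and 8.13% at P11, P18 and P56, and 1.43% in endothelial-like cells at P56. These intervals, like all Poisson intervals here, cover counting error only.

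**Figure D1:**
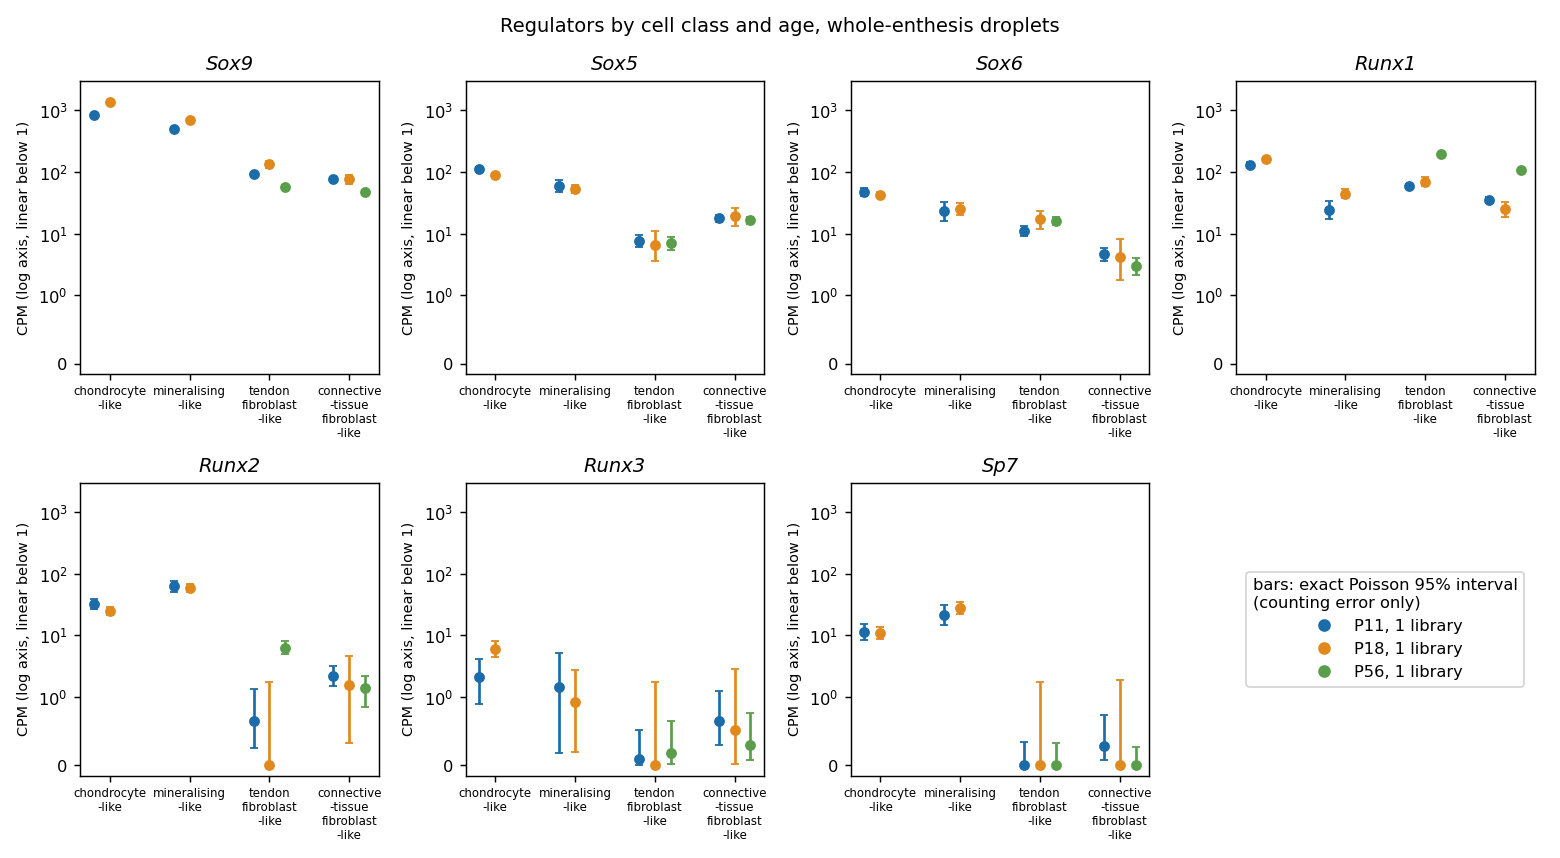
Level of each regulator (CPM, log axis that is linear below 1) in 4 cell classes of the droplet libraries, with colour for age, 1 library per point and exact Poisson 95% intervals. Sox9 reaches 1388 CPM in chondrocyte-like cells at P18, Runx1 is highest in tendon fibroblast-like cells at P56 with 193 CPM, and Sp7 lies at 0 in tendon fibroblast-like cells at every age.

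Sox5 and Sox6 were also higher in both cartilage classes than in the fibroblast classes of tendon and connective tissue, but they followed different orders among the other cells. Sox5 was 111 and 89.5 CPM in chondrocyte-like cells at P11 and P18, 59.2 and 53.2 CPM in mineralising-like cells, and 6.64 to 7.63 CPM in tendon fibroblast-like cells over the 3 ages. The connective-tissue class had between 16.5 and 19.1 CPM, above the tendon class in each library. The highest Sox5 of any named class was in lining fibroblast-like cells, at 420 CPM in 34 cells at P11 and 360 CPM in 74 cells at P56. Sox6 was 48.1 and 42.2 CPM in chondrocyte-like cells, 23.1 and 25.5 CPM in mineralising-like cells, 11.0, 17.1 and 15.8 CPM in tendon fibroblast-like cells, and between 2.96 and 4.58 CPM in the connective-tissue class. Tendon and connective-tissue fibroblast-like cells thus stood in opposite order for the 2 partner genes in all 3 libraries.

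Joint detection with Sox9 was counted for both partners in chondrocyte-like cells. At P18 and 2000 molecules per cell, Sox5 was found in 14.0% of 420 cells with Sox9 (10.9 to 17.7) and in 17.1% of 152 cells without it (11.5 to 24.1). Sox6 was found in 8.81% (6.28 to 11.9) and 3.95% (1.46 to 8.39) of the same cells. The intervals overlapped for both genes, as they did at P11, and at this depth a cell without a molecule cannot be called negative.

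Chondrocyte-like cells were compared with tendon fibroblast-like cells within libraries, to ask which regulators set cartilage cells of the enthesis apart from its tendon cells. In this comparison 38.4% of the 12385 genes tested passed the threshold (adjusted p below 0.05, edgeR quasi-likelihood test with Benjamini-Hochberg adjustment over all genes), and 19.8% passed as higher in chondrocyte-like cells. Sox9, Sox5, Sox6, Runx1 and Runx2 all passed as higher. Runx3 had too few counts to be tested, and Sp7, which met the count filter only through the cartilage classes where it is high, is given by its levels, without a test of this difference. Sox9 was 11.8-fold higher (log2 difference 3.56, SE 0.22, adjusted p = 4.9e-06). Sox5 was 16.2-fold higher (log2 4.02, SE 0.19, adjusted p = 1.4e-06), and Sox6 3.62-fold higher (log2 1.85, SE 0.21, adjusted p = 1.2e-04). Runx2 was 22.1-fold higher (log2 4.46, SE 0.63, adjusted p = 4.8e-04). The tendon class held 7 Runx2 counts at P11, none at P18 and 71 at P56, where there were no chondrocyte-like cells. The size of the Runx2 difference is therefore only loosely set. Runx1 was 2.73-fold higher (log2 1.45, SE 0.23, adjusted p = 0.0011). When the Tnn and Barx2 cluster was counted as chondrocyte-like, an alternative chosen after seeing the data, the log2 difference of Runx1 was 0.56 and its adjusted p 0.36, and the other calls held. The fit held 10 sums of 4 classes, and only P11 and P18 held both of these classes. The classes of a library also differed in Xist, a transcript of female cells, found at P18 in 14.7% of chondrocyte-like, 36.2% of mineralising-like, 60.6% of tendon and 44.1% of connective-tissue fibroblast-like cells, and its part in the differences between classes was not tested.

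Runx1 had a different order from Runx2. Runx1 was 132 and 163 CPM in chondrocyte-like cells at P11 and P18, and 24.5 and 44.3 CPM in mineralising-like cells. Runx2 was 32.0 and 24.6 CPM in chondrocyte-like cells and 62.1 and 58.4 CPM in mineralising-like cells. Mineralising-like cells were below chondrocyte-like cells for Runx1 and above them for Runx2 in both libraries. Within the chondrocyte-like class, the cluster led by Matn1 and Matn3, cartilage matrix genes, had Runx2 at 38.6 and 27.2 CPM. The other cluster, led by Msmp and Smoc1 and with the lubricin gene Prg4 among its leading genes, had Runx2 at 0 and 7.30 CPM, while its Runx1 was 154 and 194 CPM. Lining fibroblast markers, Prg4 among them, summed to 5599 and 7014 CPM in the chondrocyte-like class, and their part in these levels was not tested. All Sp7 counts of the chondrocyte-like class came from the Matn1 and Matn3 cluster.

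**Figure D2:**
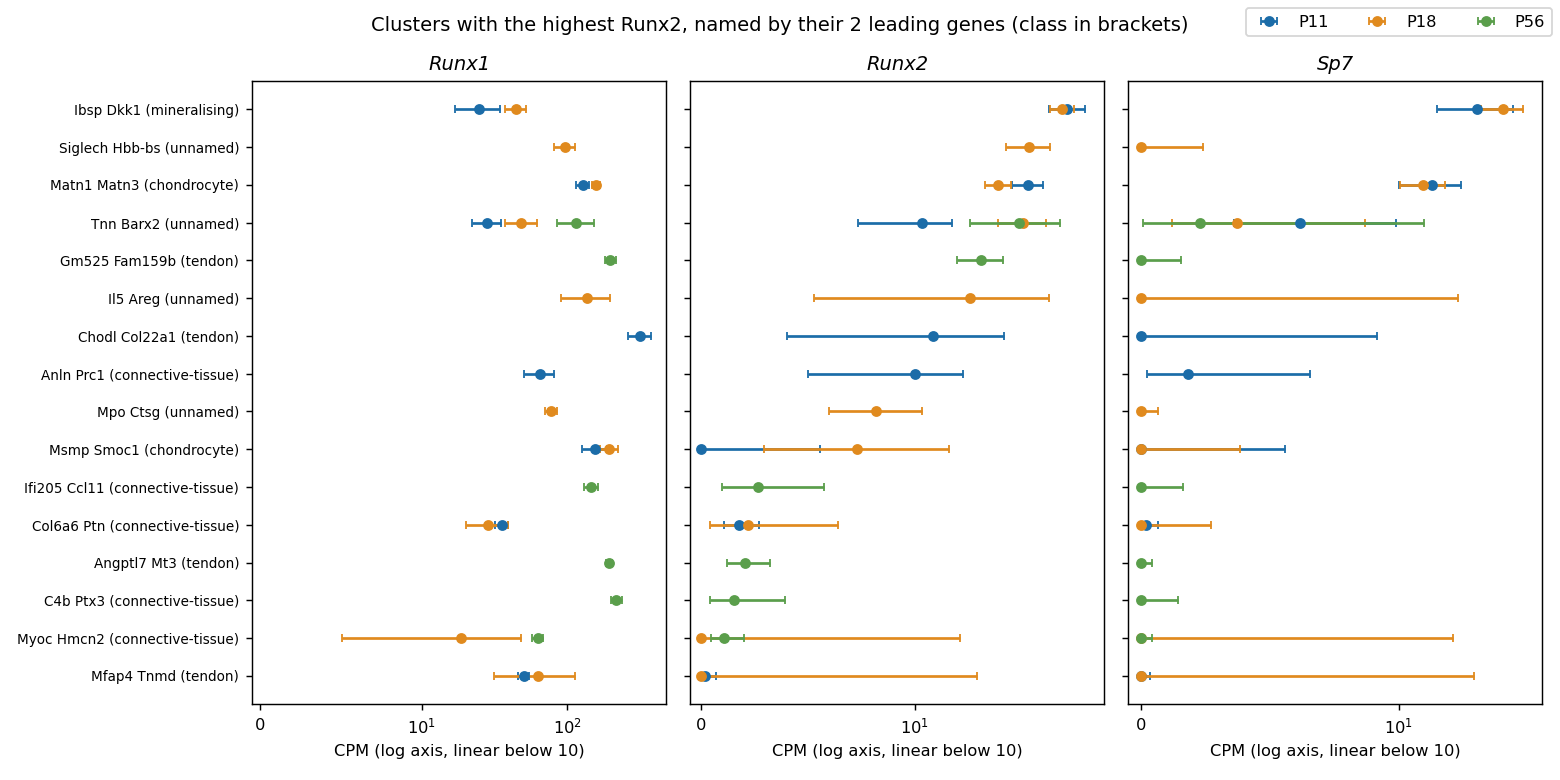
Runx1, Runx2 and Sp7 (CPM, log axis that is linear below 10) in the clusters with the highest Runx2 among the 4 classes and the unnamed clusters, each named by its 2 leading genes, with exact Poisson 95% intervals and colour for age. The mineralising-like cluster has the highest Runx2 (62.1 and 58.4 CPM) and Sp7 (21.6 and 28.0 CPM), and its Runx1 of 24.5 and 44.3 CPM lies below that of the Matn1 and Matn3 cluster.

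Most Sp7 counts were in the cartilage classes, and most others at P11 were in the Tnn and Barx2 cluster. The level of Sp7 was 11.4 and 11.1 CPM in chondrocyte-like cells at P11 and P18 (44 and 81 counts) and 21.6 and 28.0 CPM in mineralising-like cells (30 and 91 counts). Tendon fibroblast-like cells had no Sp7 count at any age, where 3 counts would be 0.276, 1.42 and 0.267 CPM at P11, P18 and P56. Against 3 counts over the tendon class at P11 and P18, Sp7 was at least 48.4-fold higher in chondrocyte-like cells and at least 113-fold higher in mineralising-like cells. These and later ratios against 3 counts leave out counting error in the cartilage classes. Connective-tissue fibroblast-like cells had 4 counts at P11 and none at P18 and P56. The Tnn and Barx2 cluster had 6.16, 3.72 and 2.30 CPM at P11, P18 and P56 (17, 5 and 1 counts). At 2000 molecules per cell, Sp7 was found in 2.91% of its cells at P11 (0.950 to 6.65), against 2.81% of chondrocyte-like cells (1.14 to 5.71). At P18 the shares were 0% of 162 cells (0 to 2.25) and 1.75% of 572 chondrocyte-like cells (0.841 to 3.19).

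Mineralising-like cells were then compared with chondrocyte-like cells. In this comparison 3.04% of the 12385 genes passed, 1.32% as higher and 1.72% as lower in mineralising-like cells. Runx1 and Sox5 passed, both lower, and Sox9, Sox6, Runx2 and Sp7 did not. Runx1 was lower by a log2 difference of -2.07 (SE 0.27, edgeR adjusted p = 0.0058), and Sox5 by -0.83 (SE 0.18, edgeR adjusted p = 0.044). Sox6 and Sox9 gave log2 differences of -0.89 and -0.88 (SE 0.22 and 0.23, edgeR adjusted p = 0.066 and 0.076). Sp7 and Runx2 gave 1.15 and 1.11 (SE 0.33 and 0.47, edgeR adjusted p = 0.12 and 0.25). Leaving out P11 or P18 ended both calls, with adjusted p of 0.12 and 0.088 for Runx1 and 0.31 and 0.42 for Sox5. With the Tnn and Barx2 cluster counted as chondrocyte-like, the adjusted p was 0.27 for Runx1 and 0.92 for Sox5. The Sox5 call was also lost with a marker score per cell (0.088), with doublets kept (0.16) and with RLE in place of TMM scaling (0.051).

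**Figure D3:**
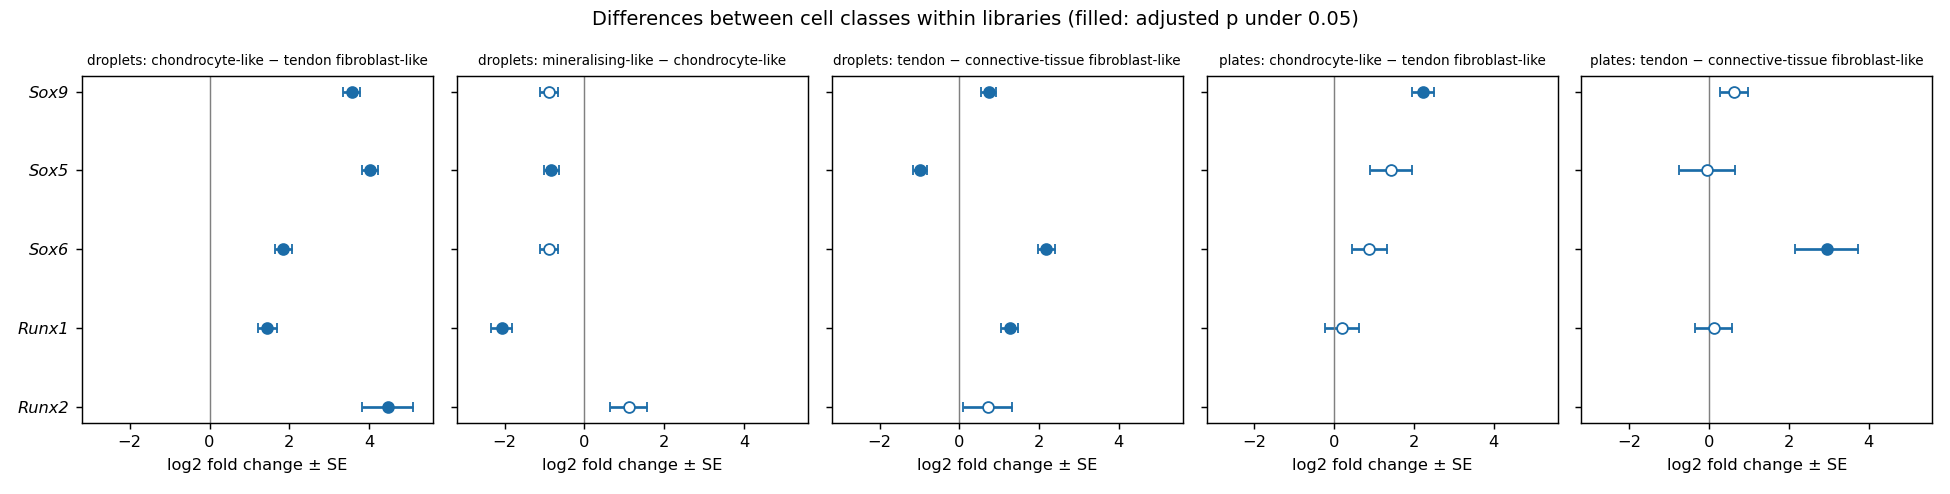
Log2 fold change with its standard error for Sox9, Sox5, Sox6, Runx1 and Runx2 in 5 comparisons of cell classes, filled where the adjusted p was below 0.05. Sp7 and Runx3 are left out because the tendon class had no Sp7 count and Runx3 was not tested. Sox9 is higher in chondrocyte-like than in tendon fibroblast-like cells in droplets (3.56) and on plates (2.23), and Runx1 is lower in mineralising-like than in chondrocyte-like cells (-2.07).

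Tendon fibroblast-like and connective-tissue fibroblast-like cells differed in Sox6, Runx1, Sox9 and Sox5. In this comparison 16.2% of genes passed, 7.69% as higher and 8.5% as lower in the tendon class. Sp7 met the count filter only through the cartilage classes, with no count in the tendon class, and is given by its levels. Sox6 was 4.55-fold higher in the tendon class (log2 2.18, SE 0.20, edgeR adjusted p = 1.1e-04), and Runx1 2.40-fold higher (log2 1.26, SE 0.21, edgeR adjusted p = 0.0028). Sox9 was 1.67-fold higher (log2 0.74, SE 0.19, edgeR adjusted p = 0.027), and Sox5 was lower by a log2 difference of -0.99 (SE 0.17, edgeR adjusted p = 0.0038). Runx2 gave 0.71 (SE 0.62, edgeR adjusted p = 0.52), with 0.643, 0 and 6.32 CPM in the tendon class and 2.22, 1.55 and 1.41 CPM in the connective-tissue class. Leaving out P11 or P18 ended the Sox9 call (adjusted p 0.20 and 0.26), and counting each cell by its own marker score ended those of Sox9 and Sox5 (0.14 and 0.13), as did keeping doublets (0.20 and 0.30). Looser cell filters also ended the Sox9 call (0.30), and stricter ones that of Sox5 (0.69, log2 -0.24). With the Tnn and Barx2 cluster counted as chondrocyte-like, the adjusted p was 0.072 for Runx1, 0.087 for Sox9 and 0.058 for Sox5, and Sox6 kept its call.

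Runx1 was higher in both fibroblast classes at P56 than at the younger ages. Tendon fibroblast-like cells had 59.7 CPM at P11 (55.2 to 64.4), 69.7 CPM at P18 (58.9 to 81.9) and 193 CPM at P56 (185 to 201), which is 3.24-fold from P11 to P56. Connective-tissue fibroblast-like cells had 35.5, 24.8 and 106 CPM, a ratio of 2.99 from P11 to P56. The share of tendon fibroblast-like cells with a Runx1 molecule at 2000 molecules per cell was 13.0%, 14.4% and 30.8%. Sox9 stood the other way round, at 0.620-fold in the tendon class and 0.631-fold in the connective-tissue class from P11 to P56. The log2 ratio in the tendon class, -0.69, moved to -1.92 with looser cell filters and to -1.84 with a marker score per cell. Each age is 1 library, and no test between droplet ages was made.

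Different clusters made up these classes at each age. The tendon class was mostly the cluster led by Mfap4 and Tnmd at P11 (663 cells), that led by Slurp1 and Il33 at P18 (167 cells) and those led by Angptl7 and Mt3 (1519 cells) and by Gm525 and Fam159b (374 cells) at P56. Runx1 was 50.4 CPM in the Mfap4 and Tnmd cluster and 315 CPM in a P11 cluster of 37 cells led by Chodl and Col22a1, against 192 and 198 CPM in the 2 clusters of P56. Runx2 in the P56 tendon class was 22.0 CPM in the Gm525 and Fam159b cluster and 2.05 CPM in the Angptl7 and Mt3 cluster. The connective-tissue class was mostly the cluster led by Col6a6 and Ptn at P11 and P18, and that led by Myoc and Hmcn2 at P56 (1080 cells, Runx1 62.6 CPM), beside that led by C4b and Ptx3 (277 cells, Runx1 217 CPM). The libraries also differed in other ways. Xist was found in 70.5% and 60.6% of tendon fibroblast-like cells at P11 and P18 and in 0.210% at P56, and their median count was 14989, 10953.5 and 5375.5. Age, sex of the pooled mice and library cannot be told apart here.

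Runx3 was almost absent from the mesenchymal classes. It was 2.08 and 6.00 CPM in chondrocyte-like cells at P11 and P18 (8 and 44 counts), 1.44 and 0.923 CPM in mineralising-like cells and at most 0.644 CPM in either fibroblast class. Its highest level in a named class with at least 10 cells was 249 CPM in T or NK-like cells at P18. Myeloid-like cells had 12.9 and 16.8 CPM and B cell-like cells 26.9 and 17.8 CPM at P11 and P18. Blood cells were present although the sort was negative for Cd45, and myeloid markers summed to 46.3 and 185 CPM in chondrocyte-like cells at P11 and P18. The part of such RNA in the Runx3 counts of that class was not tested.

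On the Gli1CreERT;Ai14 plates Sox9 was again higher in chondrocyte-like wells. Its level there was 498, 596, 716, 583, 431 and 477 CPM at P7, P11, P14, P18, P28 and P42, the plates with at least 5 wells of both classes. In tendon fibroblast-like wells it was 86.9, 185, 96.5, 155, 207 and 98.9 CPM on the same plates. The classes did not overlap, and the lowest chondrocyte-like value, at P28, lay above the highest tendon value, at the same age. The difference was 4.69-fold (log2 2.23, SE 0.28, edgeR adjusted p = 2.0e-06, higher on 6 of 6 plates). In this comparison 17.2% of the 2704 genes tested passed, 9.06% as higher and 8.14% as lower in chondrocyte-like wells.

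Sox9 gave the only call among the 4 regulators tested between these classes of wells. Sox5 gave a log2 difference of 1.43 (SE 0.53, edgeR adjusted p = 0.063) and was higher in chondrocyte-like wells on 4 of 6 plates. It was called without P7 or without P18 (adjusted p 0.035 and 0.024). Sox6 was 153, 26.5, 60.2, 21.1, 68.0 and 135 CPM in chondrocyte-like wells and 66.2, 9.27, 35.1, 40.7, 51.7 and 61.8 CPM in tendon fibroblast-like wells. Its classes overlapped, with a log2 difference of 0.88 (SE 0.44, edgeR adjusted p = 0.19) and higher values on 5 of 6 plates. Runx1 gave 0.20 (SE 0.42, edgeR adjusted p = 0.80) and was higher on 3 of 6 plates. Runx2 had at most 66.3 CPM in chondrocyte-like wells and 9.27 CPM in tendon fibroblast-like wells, from at most 5 counts per plate.

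Between tendon and connective-tissue fibroblast-like wells, Sox6 was 7.71-fold higher in the tendon class (log2 2.95, SE 0.79, edgeR adjusted p = 0.015), on 5 of 5 plates, where 9.8% of genes passed (5.07% higher, 4.73% lower). It ranged from 9.27 to 61.8 CPM in the first and from 0 to 14.0 CPM in the second, on at most 5 counts per plate. Neither class reached 10 counts on these 5 plates, so Sox6 met the count filter through chondrocyte-like wells and the tendon wells of P7. Without P14 or P42 its adjusted p was 0.074 and 0.092. Sox9 gave 0.63 (SE 0.35, edgeR adjusted p = 0.34), and Runx1 0.11 (SE 0.46, 0.96). Sox5 gave -0.04 (SE 0.70, edgeR adjusted p = 0.99).

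The few mineralising-like wells, 6 at P21 and 4 at P28, differed in level from the droplet class of that name. Runx2 was 189 CPM at P21 and 254 CPM at P28, from 7 and 6 counts, and Runx1 was 270 and 423 CPM. The cluster of these wells was led by Bglap3 and Bglap. Prtn3 and Elane were also among its 10 leading genes, as in an unnamed, mostly P18 droplet cluster led by Mpo and Ctsg. The part of blood-cell RNA in the Runx1 of these wells was not tested. Sox9 was 27.0 and 42.3 CPM, 1 count each. At P21 these wells carried 7 of 14 chondrocyte markers, summed to 2486 CPM, with Acan, Matn1 and Hapln1 at 0. They were too few for a comparison.

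**Figure D4:**
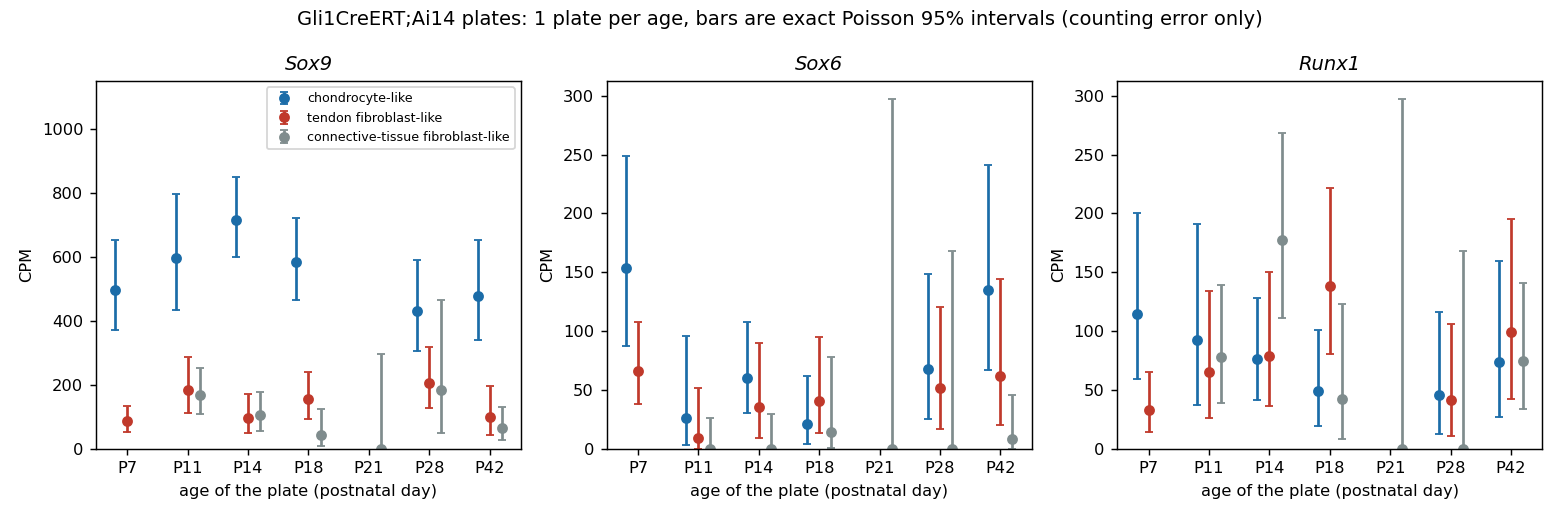
Sox9, Sox6 and Runx1 (CPM) on the plates with at least 5 wells of a class, 1 plate per age, with exact Poisson 95% intervals. Chondrocyte-like wells lie between 431 and 716 CPM for Sox9, above tendon fibroblast-like wells on each plate, and Sox6 in connective-tissue fibroblast-like wells is 0 on 4 of the 6 plates shown.

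Across the 7 plates none of the 4 regulators tested passed the test of a change with age. The slope on log2 age was -0.06 for Sox9 (SE 0.26, edgeR adjusted p = 0.97), 0.33 for Sox5 (SE 0.26, 0.72), -0.04 for Sox6 (SE 0.30, 0.98) and -0.03 for Runx1 (SE 0.29, 0.98). In this fit 0% of 4390 genes passed, 427 had an unadjusted p below 0.05, and DESeq2 called 128 of 2262 genes. Sox9 over all wells ranged from 176 CPM at P7 to 324 CPM at P14. Xist was found in 83.3%, 0%, 93.6%, 3.19%, 84.9%, 0% and 0% of wells from P7 to P42 in order of age. The plates thus also differed in sex, and its part in the slopes was not tested.

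Partners and neighbours in the pathway of the RUNX and SOX factors were counted from 6 lists, between chondrocyte-like and tendon fibroblast-like cells first, where 19.8% of all genes were higher and 18.6% lower. Of 10 RUNX partners and cofactors, Cbfb was higher in chondrocyte-like cells (log2 1.15, SE 0.20, edgeR adjusted p = 0.0015) and Hdac4 was lower, and the median log2 difference was 0.26 against -0.02 over all genes. Of 10 tested osteoblast and hypertrophy transcription factors, Dlx5, Mef2a, Msx2, Mef2c and Atf4 passed as higher and none as lower. Foxa3, Foxa2 and Dlx3 had no count in the tendon class at P11 and P18 and, like Sp7, are given by level. Dlx3 had 2.15 CPM in chondrocyte-like cells over P11 and P18. The median of all 10 was 2.82. It includes Foxa3, Foxa2 and Dlx3, whose bounds also lie above it, so setting them to their bounds could not move it. It is no test of the list, and Msx2 had only 5 counts in the tendon class at P11 and P18. The 2 furthest apart were Foxa3 and Foxa2, forkhead factors of hypertrophic cartilage, with 151 and 29.5 CPM in chondrocyte-like cells over P11 and P18 and no count in the tendon class, at least 654-fold and 128-fold higher against 3 counts. Of 8 tested SOX cofactors and other chondrogenic factors, 5 were higher and 2 lower (median 1.69), the latter Arid5b and Barx2 (1.61 against 72.4 CPM). Of 5 tested growth plate genes (median 2.44), Fgfr3, a growth factor receptor that restrains chondrocyte growth (log2 5.40), Pth1r, Tnfrsf11b and Vegfa passed as higher. Ihh, the hedgehog ligand of cartilage, is given by level in the same way, at 4.83 CPM against no count, and the median of these genes includes it. Of 6 restraining factors (median 0.02) Snai2 was higher and Twist1 and Twist2 were lower, and none of 4 tested genes of the other Sox list was called (median -0.12).

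Between mineralising-like and chondrocyte-like cells, where 3.04% of all genes passed, Pth1r, the receptor of parathyroid hormone and its related peptide, and Dlx5 were higher (log2 1.62 and 1.39, edgeR adjusted p = 0.0024 and 0.028), as were Mef2c and Trps1, no tested partner was lower, and Cbfb gave -0.16 (adjusted p = 0.76). Between the 2 fibroblast classes, where 16.2% of all genes passed, Dlx5 was lower and Barx2 and Wwp2 higher in the tendon class. Dlx3 had no count in the tendon class at P11 and P18, so it met the count filter largely through other classes and is not given as a call. On the plates, Wwp2 and Tnfrsf11b were higher in chondrocyte-like than in tendon fibroblast-like wells (log2 1.84 and 1.85), where 17.2% of all genes passed. Mef2a, Mef2c and Pth1r were higher there too, and Arid5b was lower. Wwp2, Tnfrsf11b and Trps1 were higher in tendon than in connective-tissue fibroblast-like wells, where 9.8% passed. Few listed genes had the counts for a test between classes of wells, and no restraining factor did.

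Likeness of pattern was measured as Pearson's r of log2(CPM + 1) over 22 sums of cells by class and library, which share libraries and are no independent samples. The genes most like Sox9 were Tnfrsf11b (r = 0.961), Ankrd35 (0.947) and Steap2 (0.938). Those most like Sox5 were Sema5a (0.883), Rom1 and Errfi1, and those most like Sox6 were Dusp14 (0.891), Kcnma1 and Fam162a. Runx1 had the weakest matches, led by Cryl1 (0.683), Tnfaip8 and Ptpn23. Runx2 was most like Runx2os1 (0.957), an antisense gene at its own locus, and then Rab11fip4 and Lbhd2. Strand use in the authors' counting is not given in the sources used here, so reads of Runx2 and Runx2os1 may not be told apart. Runx3 was most like Epsti1 (0.938), Rasal3 and P2ry10, and Sp7 was most like Foxa2 (0.982), Scube1 and Gjc3.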

How the data were processed

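The authors deposited raw counts: droplet matrices whose headers name software versions 3.1.0 (P11 and P18) and 3.0.2 (P56), and plate tables of counts per well. The build is mm10, per the submitters' processing notes. The aligner of the plates is not given in the sources used here.

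Cells were filtered at 500 detected genes or more and a mitochondrial share of 10% or less. Droplet cells with the highest doublet scores were removed at 0.8% per 1000 cells, 70, 233 and 211 cells, and no doublet caller was run on plates. Clustering used 2000 variable genes, 30 components, 15 neighbours and Leiden resolution 1 (scanpy 1.11.5, leidenalg 0.10.2), without the 7 genes. A name needed at least 3 markers at 2-fold or more in at least 10% of cells. The class with the largest share of its list took it, unless another class had more, and at least 3, of the 10 leading genes. This rule was changed after the clusters were seen. Counts were summed per library and class with at least 10 cells or 5 wells, and fitted with edgeR 4.0.16 (R 4.3.3), TMM scaling and library as a term, for genes with at least 10 counts in 3 sums. The plate slope needed 10 counts in 4 plates. SEs were derived from the F statistic. DESeq2 1.42.0 was an alternative. Fits were tested on simulated data. Libraries are pools, so p-values between classes set a class difference against variation between libraries. That variation is taken from the sums of all classes in the fit and drawn towards that of other genes. It is not the spread of 1 class difference alone. The p-values of the slope measure the spread of plates about the trend.

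The 7 genes and all lists were chosen with earlier results of these data known. Named are all 7 genes, their 3 most alike genes with at least 200 molecules, and, of listed partners, Cbfb and the 2 largest called differences per comparison; other list members named were chosen after their values were seen.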

Additional observations from a re-analysis of the deposited data

How the results depend on the processing

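No paired analysis was possible because the age groups share fewer than 2 replicate numbers; comparisons of classes already held library as a term. Each droplet age, each plate and each setting was varied alone, and the cause of any move was not tested. For single regulators, 378 alternatives were computed, of which 315 kept direction and side of the threshold, 23 lost a call, 14 gained one and 26 turned direction; each of those 26 belongs to a difference that was not called.

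Genes called between chondrocyte-like and tendon fibroblast-like cells numbered 4760, and 1953 with the Tnn and Barx2 cluster counted as chondrocyte-like, an alternative chosen after seeing the data. Without 1 library they numbered 2226 (without P18) to 4359, and 2551 without P11. Mineralising-like against chondrocyte-like cells gave 377, and 991 with stricter cell filters, 828 at resolution 0.5, 172 with a marker score per cell, 68 with the Tnn alternative, 936 with no count filter and 6 (without P18) to 470 without 1 library, 21 without P11. The 2 fibroblast classes gave 2006, and 834 (without P11) to 1554 without 1 library. On the plates, 465 became 284 with stricter filters and 304 (without P14) to 456 without 1 plate, and 265 became 166 to 265. The age slope gave 0, and 307 with no count filter, 128 with DESeq2 and 0 without any 1 plate.

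The log2 ratio of Runx1 from P11 to P56 was 1.69 in the tendon class, and 2.20 with stricter filters, 1.98 with looser ones, 1.82 at resolution 0.5, 1.91 with a marker score and 1.91 with doublets kept. In the connective-tissue class it was 1.58, and 1.88 with stricter filters and 1.75 with doublets kept. For Sox9 in the tendon class it was -0.69, and -1.21 with stricter filters, -1.92 with looser ones, -0.49 at resolution 0.5, -1.84 with a marker score and -1.42 with doublets kept. Sox9 in chondrocyte-like cells from P11 to P18 was 0.72, and 0.80 with doublets kept. Shares depend on depth by construction. At 1000 and 4000 molecules, Sox9 was found in 55.9% and 86.4% of chondrocyte-like cells at P18, and Runx1 in 16.1% and 46.3% of tendon fibroblast-like cells at P56. At 4000, Sox5 and Sox6 were found in 31.8% and 16.4% of chondrocyte-like cells with Sox9 at P18, and in 40.3% and 6.49% of those without it.

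Turned directions were as follows. In the droplet fibroblast classes, Runx2 gave -1.44 without P56 to 1.83 without P11. Sp7, whose few counts there allow no test, gave 0.16 with a marker score. Between chondrocyte-like and tendon wells, Runx1 gave -0.25 without P7 to 0.61 without P18. Between the fibroblast classes of the plates, Runx1 gave -0.31 with stricter filters, -0.32 with looser ones, -0.33 without P18, -0.02 without P42 and 0.65 without P14. Sox5 there gave 0.87 with stricter filters, 0.12 with looser ones, 0.38 at resolution 0.5, 0.49 with a marker score, 0.016 with no count filter, 0.19 without P28, 0.98 without P42 and -0.71 to 0.98 over all plates left out. The Runx1 slope was 0.031 with stricter filters, 0.0037 with looser ones, 0.067 over mesenchymal wells, -0.47 without P7, and 0.06, 0.01, 0.07 and 0.27 without P11, P14, P28 and P42. The Sox6 slope was 0.0082 on linear age, 0.16 with a term for the table's number format and 0.91 without P7 to -0.34 without P42, and the Sox9 slope 0.043 with that term, 0.24 without P42 and -0.37 without P7.

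A comparison of mineralising-like wells was not run, since only the P21 plate had at least 5. Depth limits Runx3 and Sp7 in droplets and Runx2 and Sp7 on plates, where a level rests on a few counts.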

Other observations

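The regulators were also found in cells outside the cartilage and fibroblast classes. A cluster of 18 cells at P11 and 57 at P56 led by Myog and Actc1, genes of muscle differentiation, had the highest Runx1 of any cluster in each of those libraries, at 319 and 589 CPM. A P18 cluster of 42 cells led by Il5 and Areg had Runx3 at 180 CPM. A P18 cluster of 117 cells led by Siglech and Hbb-bs had Runx3 at 171 CPM and Runx2 at 39.1 CPM, above the 27.2 CPM of the Matn1 and Matn3 chondrocyte-like cluster in that library. Runx1 in myeloid-like cells was 192 CPM at P11 and 72.0 CPM at P18. Mural-like cells had Sox5 at 54.1 and 49.5 CPM at P11 and P56, and Runx1 at 106 and 199.5 CPM.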
